A study of Homo sapiens with 6 samples.

Results

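Zinc transporters and metallothioneins were compared between MDA-MB-231 cells with and without knockdown of ATAD3A. The genes were taken by symbol from the array table: the zinc exporters SLC30A1 to SLC30A10 (ZnT proteins), the zinc importers of the SLC39A family (ZIP proteins), the metallothioneins MT1 (with 1 letter), MT2A, MT3 and MT4, and the factors MTF1 and MTF2. They came to 35 genes of the 19775 tested: 10 exporters, 14 importers, 9 metallothioneins and 2 MTF factors. The cells, MDA-MB-231, are an established human line of triple-negative breast cancer. Cells were infected with pLKO.1 lentivirus carrying a short hairpin RNA against ATAD3A (shATAD3A, 3 arrays) or against GFP (shGFP, the control, 3 arrays). Both groups were selected in 1 µg/ml puromycin for 2 weeks, so the controls also carry a virus, a hairpin and the resistance, and both were used at passage 2. The labels give neither the number of hairpins nor whether the lines were clones or pools, and nothing states that replicates came from different cultures. The p-values thus cover the spread among these 6 arrays alone, which may be technical.

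Cells hold almost no free zinc. ZnT proteins move zinc out of the cytosol, across the plasma membrane or into organelles, and ZIP proteins move it into the cytosol. Metallothioneins are small cysteine-rich proteins that bind zinc and copper. When zinc rises, the transcription factor MTF1 binds metal response elements and turns on metallothionein genes and SLC30A1, so these genes are commonly read as a gauge of the zinc that MTF1 senses. ATAD3A, the target of the hairpin, is an ATPase of the mitochondrial inner membrane.

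Values are on the log2 scale. A change is the knockdown mean minus the control mean, given with its SE from limma, and a group mean carries the SD of its arrays (n = 3). A gene was called changed at a Benjamini-Hochberg adjusted p below 0.05 in limma over all 19775 genes. Gene means piled up at low values, and genes below 4.68, the dip that bounds this peak, in both groups are described as in the low mode, where values hold little signal. In such bulk RNA, fewer cells expressing a gene and less RNA per cell cannot be told apart. ATAD3A itself fell from 7.77 ± 0.038 (SD, n = 3) to 7.28 ± 0.21 (SD, n = 3), which is 29.0% lower (limma adjusted p = 0.0129). That reading came from a probe set of the x_at type, whose probes may cross-hybridise, so it cannot be assigned with certainty to ATAD3A alone. Of 14 markers of leukocytes, fibroblasts and endothelium, 12 lay in the low mode. COL1A1 read 8.35 in control and 9.35 in knockdown, and PECAM1 read 6.57 and 5.30. Their part in the results was not tested. Of the markers of this line, VIM, CD44 and EGFR were above the low mode, while ESR1 and PGR were in it and ERBB2 read 7.80 in control and 8.31 in knockdown.

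A few zinc transporters changed clearly. Of the 9 metallothioneins, 3 lay in the low mode, 1 rose and 5 did not pass on their brightest probe set. With probe sets averaged, MT1F (0.21, limma adjusted p = 0.00105) and MT1X (-0.17, limma adjusted p = 0.00511) passed as well. Of the 35 genes, 9 rose and 3 fell, and the other 23 missed the threshold. That share, 34.3%, is close to the 33.6% of all genes called in this comparison, so the share called was near the background. Groups did not overlap in 15 of the 35 genes, and in 42% of all genes. The median change over the 35 genes was 0.012, against -0.00084 over all genes tested. Of the 35 genes, 10 lay in the low mode in both groups and 0 of those were called by limma, with a lowest adjusted p of 0.404. Of the 25 above it, 48% were called, against 62% of all genes above the low mode. Among all genes above the low mode, 36.5% rose and 25.5% fell. The 12 genes called were 2 exporters, 8 importers, 1 metallothionein and MTF1, and the groups did not overlap in any of the 12. Changes of at least 2-fold were seen in 2 genes, SLC39A11 and SLC30A1. Over all genes, 5.82% were called with a change that large.

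**Figure D1:**
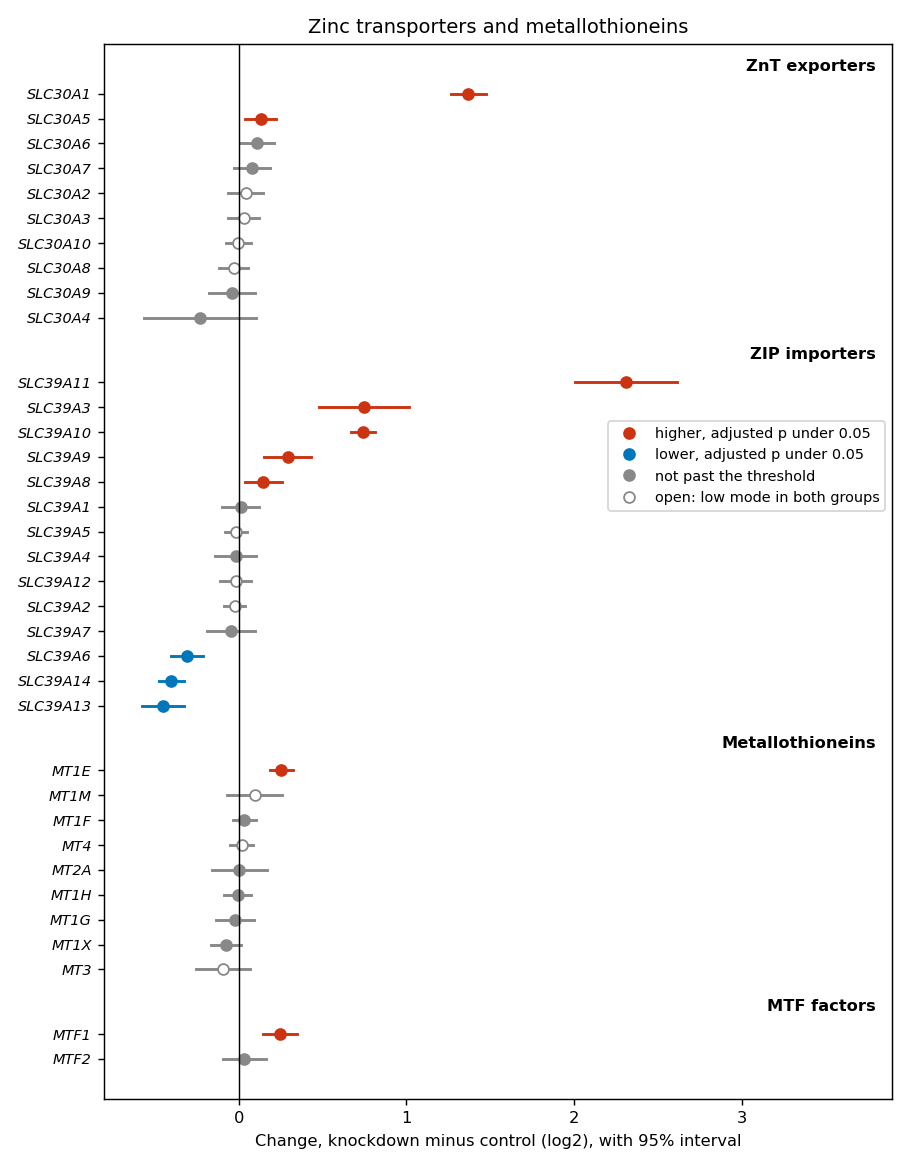
Change in log2 expression value (knockdown minus control, x axis) for each of the 35 genes, by role, with its 95% interval from the limma fit. SLC39A11 (2.31) and SLC30A1 (1.37) lie far to the right, and the metallothioneins lie between -0.094 and 0.25.

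Among the exporters, SLC30A1 rose. SLC30A1 (ZnT1) is the main zinc exporter of the plasma membrane and a direct target of MTF1. Its control arrays read 10.95, 10.88 and 10.86 and its knockdown arrays 12.21, 12.31 and 12.29. Every knockdown array was higher than every control array, with a gap of 1.25 between the nearest arrays. The change of 1.37 ± 0.043 (SE; limma adjusted p = 6.59e-06) is 2.59-fold, with a 95% interval of 2.41 to 2.78. A further SLC30A1 probe set, at 7.77 in control, rose by 1.69 (limma adjusted p = 9.05e-05, over all probe sets), and the last lay in the low mode.

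The exporters of the secretory pathway moved little. SLC30A5 and SLC30A6 form a pair that loads zinc onto enzymes such as alkaline phosphatase, a task shared with SLC30A7. SLC30A5 rose by 0.13 ± 0.037 (SE; limma adjusted p = 0.0388), but the call was lost under 12 of 15 other settings, with values between 0.10 and 0.31. SLC30A6 changed by 0.11 (limma adjusted p = 0.101) and SLC30A7 by 0.080 (limma adjusted p = 0.256), and neither passed. A dimmer SLC30A7 probe set, at 6.77 in control, went the other way, with a change of -0.64 (limma adjusted p = 0.0254, over all probe sets).

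SLC30A9, which is known as a zinc exporter of mitochondria, gave different readings on its 2 probe sets. On the brighter, the control arrays read 10.94, 10.81 and 10.89 and the knockdown arrays 10.76, 10.85 and 10.92. These overlap, and the change of -0.038 did not pass (limma adjusted p = 0.772), with a 95% interval of -0.18 to 0.10. The other probe set read 7.37 ± 0.064 in control and 8.23 ± 0.087 in knockdown (SD, n = 3), higher by 0.86 (limma adjusted p = 0.000212, over all probe sets). Which transcripts each probe set detects was not tested. SLC30A4, an exporter into endosomal vesicles, changed by -0.23 (limma adjusted p = 0.312), with knockdown replicate 3 at 6.51 and the other arrays of both groups between 6.86 and 7.12. SLC30A2, SLC30A3 of synaptic vesicles, SLC30A8 of insulin granules and the manganese exporter SLC30A10 lay in the low mode in both groups.

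Among the importers, 5 rose and 3 fell of 14, so the ZIP family moved in both directions. Rises made up 19.7% of all genes and falls 13.9%. Of the 11 importers above the low mode, 72.7% were called, against 62% of all genes above the low mode. The median change of the 14 importers was -0.017.

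SLC39A11 (ZIP11), an importer placed at the Golgi and the nucleus, rose most of the 35 genes. Its control arrays read 6.23, 5.87 and 5.89 and its knockdown arrays 8.12, 8.39 and 8.41. The lowest knockdown array lay 1.89 above the highest control array. The change of 2.31 ± 0.13 (SE; limma adjusted p = 4.65e-05) is 4.96-fold, with a 95% interval of 4.01 to 6.13. It has a single probe set, so no other measurement of the gene was at hand.

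SLC39A10 (ZIP10), an importer of the plasma membrane, also rose. Its arrays read 10.50, 10.48 and 10.45 in control and 11.21, 11.19 and 11.24 in knockdown. The spread within each group was small beside the difference of 0.74 ± 0.029 (SE; limma adjusted p = 1.48e-05), or 1.67-fold. SLC39A3 (ZIP3), another importer of the plasma membrane, read 8.71, 8.32 and 8.39 in control and 9.19, 9.16 and 9.32 in knockdown. The groups did not overlap, although control replicate 1 lay nearer to the knockdown arrays than the other two did. Its change was 0.75 ± 0.11 (SE; limma adjusted p = 0.00257), or 1.68-fold. The remaining SLC39A3 probe sets were in the low mode. The call rests on 1 probe set of the s_at type, whose probes can match more than 1 transcript, and without such probe sets SLC39A3 read -0.027 (limma adjusted p = 0.869).

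The other rises among importers were smaller. SLC39A9 (ZIP9), which also serves as a membrane androgen receptor, rose by 0.29 ± 0.057 (SE; limma adjusted p = 0.00878). SLC39A8 (ZIP8), which carries manganese and cadmium as well as zinc, rose by 0.15 ± 0.045 (SE; limma adjusted p = 0.0498). That call lay at the threshold and was lost when any 1 array was left out, with adjusted p between 0.0586 and 0.125 in those fits.

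The 3 importers that fell lost between 19.2% and 26.8% of their signal. SLC39A13 (ZIP13), an importer of the early secretory pathway needed in connective tissue, read 8.80, 8.68 and 8.73 in control and 8.29, 8.35 and 8.20 in knockdown. The groups did not overlap, and the change was -0.45 ± 0.052 (SE; limma adjusted p = 0.000916). Another SLC39A13 probe set, at 5.95 in control, changed by -0.077 (limma adjusted p = 0.393, over all probe sets). SLC39A14 (ZIP14), which carries zinc, manganese and iron, changed by -0.40 ± 0.030 (SE; limma adjusted p = 0.000156), from arrays between 11.38 and 11.42 to arrays between 10.96 and 11.03. SLC39A6 (LIV-1), an importer regulated by oestrogen in breast cells, changed by -0.31 ± 0.039 (SE; limma adjusted p = 0.00140). A further SLC39A6 probe set, at 10.73 in control, also fell, with a change of -0.33 (limma adjusted p = 0.00254, over all probe sets), and those at 8.23 and 7.92 did not pass.

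SLC39A1 of the plasma membrane, SLC39A7, which releases zinc from the endoplasmic reticulum, and SLC39A4, the importer of dietary zinc, were above the low mode and did not pass. Their changes were 0.012, -0.046 and -0.018, with 95% intervals that reached no further than -0.19 and 0.12. SLC39A2, SLC39A5 and SLC39A12 lay in the low mode.

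**Figure D2:**
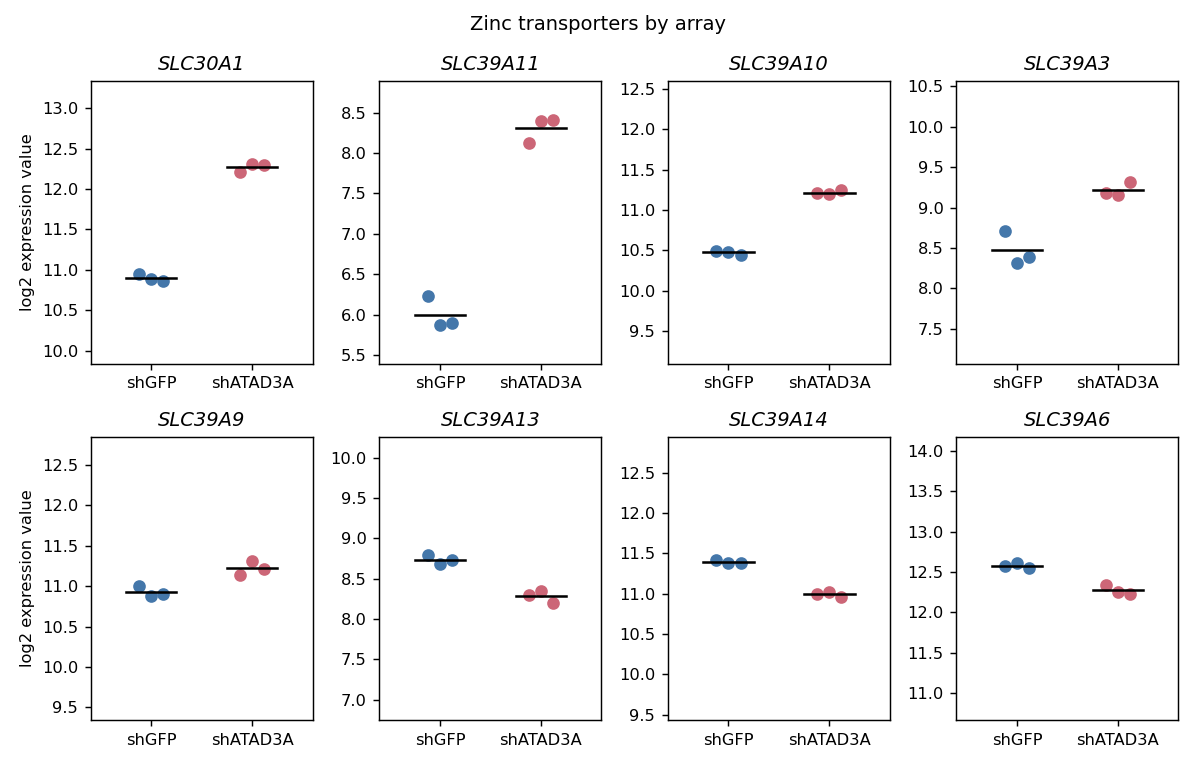
Log2 expression value of 8 zinc transporters in each array, with 3 shGFP control arrays (blue) and 3 shATAD3A knockdown arrays (red) per gene; lines are group means, and every panel spans the same range of log2 units. SLC30A1, SLC39A11, SLC39A10, SLC39A3 and SLC39A9 are higher in all 3 knockdown arrays, and SLC39A13, SLC39A14 and SLC39A6 are lower in all 3.

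The 6 metallothioneins above the low mode gave bright signals, with changes between -0.076 and 0.25 on their brightest probe set. MT2A read 15.01, 14.86 and 14.93 in control and 14.83, 14.93 and 15.05 in knockdown. The arrays overlap fully, and the change of 0.0046 ± 0.067 (SE; limma adjusted p = 0.982) has a 95% interval of -0.16 to 0.17. MT1X read 14.26, 14.18 and 14.20 in control and 14.09, 14.17 and 14.16 in knockdown. The knockdown arrays were all slightly lower, but the change of -0.076 did not pass (limma adjusted p = 0.206). MT1H, MT1F and MT1G changed by -0.0063, 0.035 and -0.022. A further MT1G probe set, not of the x_at type, lay in the low mode, at 2.45 in control and 2.44 in knockdown. Whether the bright MT1G signal comes from MT1G was not tested. On the kept probe sets of these 5 genes, the separate 95% intervals ran from -0.17 to 0.17. A change larger than 10.9% downward or 12.4% upward lies outside each of them. This holds for those probe sets and not for the genes, since dimmer probe sets of MT1F and MT1X changed by 0.39 and -0.26. The highest value in the table was 16.6, and whether signals this bright are compressed by the array was not tested.

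MT1E was the 1 metallothionein called. It read 13.64, 13.61 and 13.59 in control and 13.86, 13.87 and 13.88 in knockdown. The groups were tight and separate, with a rise of 0.25 ± 0.028 (SE; limma adjusted p = 0.000729), or 1.19-fold. The other MT1E probe set, at 13.4 in control, changed by 0.059 (limma adjusted p = 0.337, over all probe sets). Probe sets of MT1F and MT1X also disagreed. A dimmer MT1F probe set, at 8.67 in control, rose by 0.39 (limma adjusted p = 0.000552, over all probe sets), and an MT1X probe set at 13.9 in control fell by 0.26 (limma adjusted p = 0.00239, over all probe sets). The probe sets kept for 6 of the 9 metallothioneins are of the x_at type, whose probes may cross-hybridise, and the genes are near copies of each other, so signals cannot be assigned with certainty to 1 gene. MT1M, MT3 and MT4, the last of stratified epithelia and MT3 of the brain, lay in the low mode with changes between -0.094 and 0.096.

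MTF1, the zinc sensor itself, rose modestly. Its arrays read 8.62, 8.58 and 8.52 in control and 8.78, 8.88 and 8.80 in knockdown. All knockdown arrays were higher, and the change was 0.25 ± 0.042 (SE; limma adjusted p = 0.0048), or 1.19-fold. Dimmer MTF1 probe sets changed by 0.45 (limma adjusted p = 0.0234, over all probe sets) and 0.43 (limma adjusted p = 0.0552). MTF2, a Polycomb accessory protein that shares the name, changed by 0.033 (limma adjusted p = 0.789). Another MTF2 probe set fell by 0.47 (limma adjusted p = 0.00453, over all probe sets), and its other three did not pass.

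**Figure D3:**
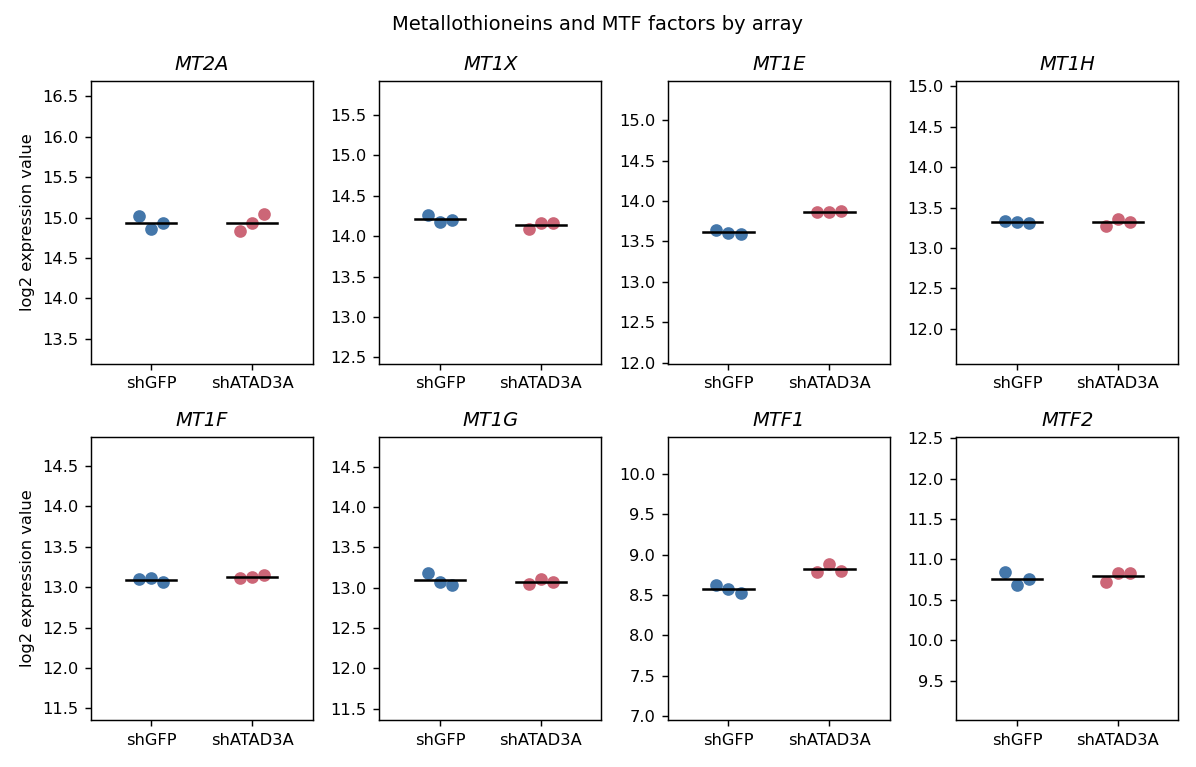
Log2 expression value of 6 metallothioneins, MTF1 and MTF2 in each array, with 3 shGFP control arrays (blue) and 3 shATAD3A knockdown arrays (red) per gene; lines are group means, and every panel spans the same range of log2 units. MT1E and MTF1 are higher in all 3 knockdown arrays, and the arrays of MT2A overlap around 14.9.

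The promoters of these genes were searched for the core of the metal response element, because MTF1 is known to act through it on both SLC30A1 and the metallothioneins. The letters searched were TGCACNC and TGCGCNC, on both strands, in the 250 bases before the start of each gene. Sequences are from RefSeq (GRCh38.p14), written 5' to 3' on the strand of the gene, with matches to either core in capitals. They are shown for the exporter and the importer that rose most and for 2 bright metallothioneins that did not pass.
SLC30A1, higher in knockdown, chr1:211579162-211579411, minus strand: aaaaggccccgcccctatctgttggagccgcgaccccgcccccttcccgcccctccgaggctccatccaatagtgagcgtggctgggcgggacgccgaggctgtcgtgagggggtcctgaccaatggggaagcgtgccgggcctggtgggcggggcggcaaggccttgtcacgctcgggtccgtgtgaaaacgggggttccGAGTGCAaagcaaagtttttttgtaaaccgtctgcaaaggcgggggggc
MT2A, not past the threshold, chr16:56608334-56608583, plus strand: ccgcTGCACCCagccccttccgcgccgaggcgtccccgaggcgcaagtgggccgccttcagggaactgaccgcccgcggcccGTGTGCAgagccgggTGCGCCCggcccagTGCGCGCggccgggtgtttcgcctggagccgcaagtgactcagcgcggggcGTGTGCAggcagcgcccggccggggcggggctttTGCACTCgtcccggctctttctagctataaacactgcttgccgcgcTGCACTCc
MT1X, not past the threshold, chr16:56682220-56682469, plus strand: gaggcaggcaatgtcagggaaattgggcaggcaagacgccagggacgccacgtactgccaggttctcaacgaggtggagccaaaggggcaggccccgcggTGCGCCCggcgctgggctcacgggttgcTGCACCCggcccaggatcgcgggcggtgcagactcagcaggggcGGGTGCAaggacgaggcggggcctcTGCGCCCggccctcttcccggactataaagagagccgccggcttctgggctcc
SLC39A11, higher in knockdown, chr17:73092689-73092938, minus strand: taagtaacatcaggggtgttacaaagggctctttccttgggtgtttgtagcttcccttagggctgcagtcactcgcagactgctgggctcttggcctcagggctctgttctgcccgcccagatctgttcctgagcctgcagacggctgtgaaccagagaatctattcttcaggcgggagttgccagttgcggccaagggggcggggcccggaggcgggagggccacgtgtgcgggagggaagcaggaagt

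Windows were at hand for 4 of the 9 metallothioneins, and MT1E, the 1 called, was not among them. Those 4 windows held between 3 and 8 matches each. The MT2A window held 7 matches, with none overlapping another, and that of MT1X held 4. The SLC30A1 window held 1, and the SLC39A11 window held 0. Among the windows not printed, MT1H held 8, MT4 held 3 and SLC30A2 held 3, while SLC39A3 held 1 and both SLC39A10 windows held 0. Of all 35116 such windows in the table, 24.8% held at least 1 match, 1.58% at least 3 and 0.12% at least 5. The table had windows for 27 of the 35 genes. A match describes letters and not binding, and its absence says only that these letters are not in this window.

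Each gene was also set beside its neighbours on the chromosome. For each of the 25 genes above the low mode, the median change was taken over up to 50 neighbours (25 on either side) that were also above the low mode. The median was subtracted as a fixed number, so p-values relative to the neighbours leave out the spread among those neighbours. SLC39A11 and SLC30A1 stood well above their neighbours, whose medians were 0.091 and 0.17. With the neighbour median subtracted they changed by 2.22 (limma adjusted p = 6.8e-05) and 1.20 (limma adjusted p = 1.19e-05). SLC39A10 kept a rise of 0.51 and SLC39A13 a fall of 0.51 on this scale. SLC39A3 lay among neighbours with a median of 0.52, and its own remaining change of 0.23 did not pass (limma adjusted p = 0.194). SLC39A14 lay among neighbours with a median of -0.53, and its fall became a rise of 0.13 (limma adjusted p = 0.0191). MTF1 also lost its call, at 0.047 beyond its neighbours (limma adjusted p = 0.552). DNA copy number was not analysed here.

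The metallothioneins form 1 run on chromosome 16, with no other tested gene among the 9. Their neighbours above the low mode had a median change of 0.34. This same number was subtracted for every metallothionein above the low mode, so their shifts relative to the neighbours are not separate results. On either side, OGFOD1, BBS2 and NUP93 rose by 0.35, 0.40 and 0.48 and HERPUD1 fell by 0.76. Relative to the neighbours, MT2A changed by -0.34 (limma adjusted p = 0.0106), MT1X by -0.42 and MT1E by -0.087 (limma adjusted p = 0.0621). Of the 10 measured genes that flank the run, 3 rose, 1 fell and 6 did not pass. Among those 6, GNAO1, GNAO1-AS1, SLC12A3 and CETP lay in the low mode. Over all genes 33.6% were called, and 62% of those above the low mode.

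**Figure D4:**
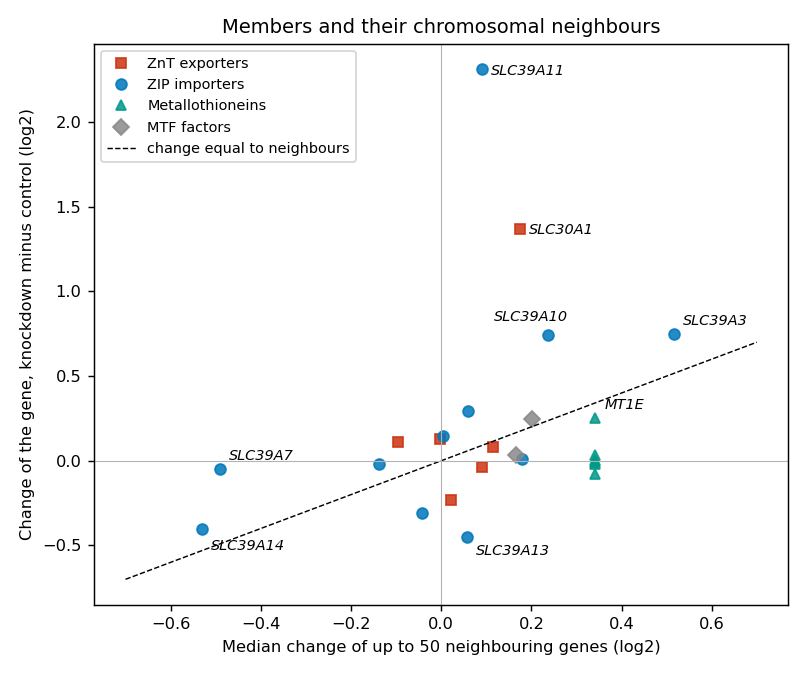
Change of each of the 25 genes above the low mode (y axis, log2) against the median change of up to 50 neighbouring genes (x axis, log2), by role; the dashed line marks a change equal to that of the neighbours. SLC39A11 and SLC30A1 lie far above the line, SLC39A14 and SLC39A3 lie near it, and the metallothioneins stand in a column at 0.34.

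Other genes of zinc handling included the largest fall seen among metal genes examined here. Of a list of 18 genes of zinc transport and sensing outside these families, 8 were measured and 10 were not analysed here. Of the 8, 2 rose and 3 fell, and TRPM2, MCOLN1 and ZNF658 did not pass. TMEM163, a zinc efflux protein of vesicles and the plasma membrane, read 8.58, 8.92 and 8.40 in control and 2.83, 2.77 and 3.00 in knockdown. It went from well above the low mode into it, so the change of -5.77 (limma adjusted p = 3.13e-06) is imprecise in size. GPR39, a receptor that senses extracellular zinc, fell from 8.98 to 7.74 (limma adjusted p = 0.000145), and TRPM7, a channel for zinc and magnesium, fell by 0.28 (limma adjusted p = 0.00789). TMC6 and TMC8, partners that have been linked to ZnT1, rose by 1.24 (limma adjusted p = 0.000109) and 0.57 (limma adjusted p = 0.0275). The TMC8 call was lost without any 1 of the 3 control arrays.

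Of 18 genes of the heavy metal and oxidant response, a list that holds defence genes, their regulators and heat shock genes, 7 rose and 6 fell. The cystine transporter SLC7A11 rose by 1.41, haem oxygenase HMOX1 by 0.91 and SQSTM1 by 0.65. BACH1, a repressor of HMOX1, changed by -1.39, MAFF by -0.53 and the heat shock protein DNAJB1 by -0.48, which read 0.028 relative to its neighbours. The median change of the list was 0.090.

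Of 18 genes of copper handling, 5 rose and 5 fell. The copper chaperones of cytochrome oxidase SCO2 and SCO1 rose by 0.64 and 0.46, and FDX1, a mitochondrial ferredoxin, by 0.38. The copper-dependent enzyme LOXL2 changed by -1.45, the copper exporter ATP7A by -0.92 and SLC31A2 by -0.68. ATP7A read -0.032 (limma adjusted p = 0.93) relative to its neighbours. Of 25 genes of iron handling, 7 rose and 5 fell. LCN2, which binds iron carriers, rose by 1.27, the iron exporter SLC40A1 by 0.75 and PCBP2 by 0.57, although PCBP2 read -0.021 without s_at and x_at probe sets. Relative to its neighbours, whose median was 0.52, PCBP2 read 0.053. SLC25A37, the mitochondrial iron importer, changed by -1.88, STEAP1 by -0.52 and STEAP3 by -0.36. Without s_at and x_at probe sets STEAP3 read -0.18 and lost its call (limma adjusted p = 0.213).

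Of 18 genes of manganese and magnesium transport, 5 rose and 3 fell, with SLC41A2 up by 0.75, ATP2C1 by 0.43 and NIPA1 by 0.42, and with MAGT1 changed by -0.65, TMEM165 by -0.42 and TUSC3 by -0.19. Relative to their neighbours MAGT1 and TUSC3 turned to 0.24 and 0.11, and without s_at and x_at probe sets ATP2C1 and TMEM165 turned to -0.071 and 0.88. Of 19 zinc metalloenzymes, most of them secreted or at the cell surface, 2 rose and 7 fell. The cytosolic carbonic anhydrase CA2 rose out of the low mode, from 2.63 to 7.72, and CA12 rose by 0.94. The metalloprotease MMP3 changed by -1.83, ENPP1 by -1.71 and carboxypeptidase CPE by -1.69. MMP3 ended in the low mode, so its size is imprecise. Over the 6 lists, 28 of 106 measured genes rose and 29 fell. That is 53.8% called (44.4% to 72.2% by list), against 33.6% of all genes and 62% of genes above the low mode, where 82 of the 106 lay. Apart from TRPM2, MCOLN1 and ZNF658, limma adjusted p for the genes named from these lists lay below 0.05.

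**Figure D5:**
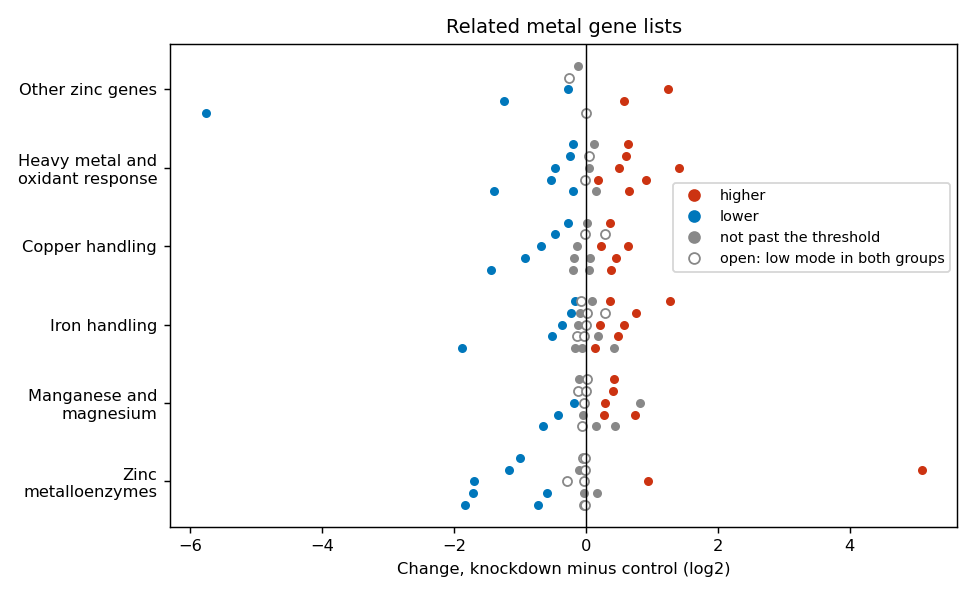
Change in log2 expression value (knockdown minus control, x axis) of every measured gene in 6 lists of related metal genes; points are genes, coloured by whether they passed the limma threshold, and open points lie in the low mode in both groups. TMEM163 stands alone at -5.77 and CA2 at 5.09, and every list holds genes on both sides of 0.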

How the data were processed

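Total RNA (250 ng per array, 3' in vitro transcription, biotin) was measured, per the labels' protocols, on the Affymetrix U133 Plus 2.0 platform. The values the authors deposited are taken as log2 from their range (0.826 to 16.6), since the scale is not given in the sources used here, nor is the summary method. The software named, per the submitters' processing notes, is Partek. Medians of the arrays ran from 3.16 to 3.23.

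Of 54675 probe sets, 62 controls were set aside and 41091 had 1 symbol in the 2016 platform annotation. The probe set with the highest mean was kept per gene. Groups were compared with limma 3.58.1 in R 4.3.3 (lmFit, eBayes, two-sided, no covariates), which was tested on simulated data. The members, gene lists and settings were chosen with earlier results of these data known. Array values are given for called genes that changed by at least 0.5 without overlap, for MTF1 and MT2A and for others discussed; related lists name up to 3 genes per direction. Gene order came from the GRCh38.p14 table. The number of arrays limits the precision. Alternatives covered normalization, filters, probe sets, variance prior, array weights, neighbours, the replicate block and left-out replicates.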

Additional observations from a re-analysis of the deposited data

How the results depend on the processing

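The rises of SLC30A1, SLC39A11 and SLC39A10 and the falls of SLC39A13 and SLC39A6 passed at 0.05 under each of the 15 settings and with the neighbour median removed. The number of genes among the 35 that rose was 9, and 7 to 8 when 1 array was left out; 3 fell each time. It was 5 without s_at and x_at probe sets, where fewer genes are tested. Counted by probe set, 7 fell. With the neighbour median removed, 8 fell, and the median change was -0.016; it was 0.033 without dim genes by either filter. Related genes that fell numbered 18 without s_at and x_at probe sets.

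With the neighbour median removed, directions of called genes turned for MT1E (-0.087), SLC39A14 (0.13), DNAJB1 (0.028), TUSC3 (0.11) and MAGT1 (0.24). MT1F (-0.31), MT2A (-0.34), SLC39A1 (-0.17) and SLC39A7 (0.45) also changed sign, but had not passed before. They gained calls in that setting, as did MT1G (-0.36), MT1H (-0.35), MT1X (-0.42) and SLC30A6 (0.20), which kept their sign. Directions turned without s_at and x_at probe sets for SLC39A3 (-0.027), PCBP2 (-0.021), ATP2C1 (-0.071) and TMEM165 (0.88). SLC39A3 was then read from a probe set in the low mode, where values hold little signal. On averaged probe sets TMEM165 turned (0.049), and SLC30A9, which had not passed before, turned and gained a call (0.41). The cause was not tested. With averaged probe sets MT1F (0.21) and MT1X (-0.17) gained calls, and 10 genes rose and 4 fell. Without s_at and x_at probe sets STEAP3 (-0.18), TMC8 (0.40) and TUSC3 (-0.22) lost theirs. TUSC3 lost its call without any 1 of 5 arrays and TMC8 without any 1 of the 3 control arrays.

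Replicates of the groups share numbers only: deviations of same-numbered arrays correlated at -0.24, -0.18 and 0.070. With the replicate number as a block, 7 genes rose and 3 fell, and SLC30A5 (adjusted p = 0.123) and SLC39A8 (adjusted p = 0.145) lost their calls.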
